A study of Homo sapiens with 5 samples.

Results

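PHGR1, PCDH19, TBX2, SCARA3 and RCSD1 are 5 of the 15028 human genes counted in at least 10 wells of single-cell libraries of SW480 tumors. They were chosen because their unique molecular identifiers (UMIs), summed over plates, rose strongly between 1 and 4 days post injection (dpi), so that rise is given below as a description and without a test. No size of rise was set as a limit for the choice. In a fit over all genes (edgeR's quasi-likelihood test, Benjamini-Hochberg adjusted p below 0.05) 1695 of 12610 genes tested were higher at 4 dpi, which is 13.4%, and 14.2% were lower. By size of the log2 change among the higher genes TBX2 stood at place 2, SCARA3 at 3, RCSD1 at 5, PHGR1 at 30 and PCDH19 at 37.

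SW480 is a cell line from a human colon adenocarcinoma. The cells, which all carried a lentiviral GFP vector, were injected into zebrafish embryos, a host with innate immune cells whose adaptive immunity has not yet matured, and the tumors were dissected at 1 or 4 dpi. Tumors of many animals were pooled, living cells were sorted by FACS into plates of 384 wells, and each plate was made into 1 library by SORT-seq, which counts UMIs near the 3′ end of polyadenylated RNA. No treatment or genotype separated the groups, namely 1 dpi (libraries 6, 7 and 8) and 4 dpi (libraries 10 and 11).

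A well was taken as a cell if over 2000 genes were counted and mitochondrial UMIs made up under 25%. There were 228, 142 and 163 cells at 1 dpi and 132 and 161 at 4 dpi, 826 in all, with a median of 18823 to 36197 UMIs per cell of a library. The flow cells each held libraries of both time points (6, 7 and 10, and 8 and 11). All libraries used the same 384 well barcodes. The epithelial label held in the data: 10 of 11 markers of the line were listed and summed to between 5097 and 6227 CPM of a library (UMIs per 1000000), with EPCAM between 1164 and 1525 CPM. Most of this sum was from KRT8, EPCAM, KRT18 and KRT19, and single markers differed between the times. VIM, a mesenchymal gene in this list, stood at 17.7 to 22.5 CPM at 1 dpi and at 87.9 and 107 at 4 dpi. CDH1 stood at 50.8 to 78.5 CPM and at 34.3 and 41.4. Leukocyte markers (6 of 12 listed, PTPRC not among them) summed to between 5.81 and 14.8 CPM, and endothelial, fibroblast and blood markers (4 of 13 listed) to between 7.86 and 22.0 CPM. Reads were mapped to human genes only, so these sums are no measure of cells of the zebrafish host. No source says whether plates of 1 time point came from separate pools of tumors, so p-values measure the spread between these libraries, which may be technical. Tests at 4 dpi alone rest on 2 libraries. They measure that spread poorly, and their p-values draw mostly on variance pooled over all genes.

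The 5 genes belong to no common pathway. PHGR1 encodes a small protein rich in proline, histidine and glycine that is abundant in the epithelium of the gut. PCDH19, on the X chromosome, encodes a delta-protocadherin, a cell adhesion molecule whose cytoplasmic tail binds the WAVE complex that drives actin branching, and it is best known from neurons. TBX2 is a T-box transcription factor that mostly represses its targets, among them the cell cycle inhibitors CDKN1A and CDKN2A. SCARA3 is a class A scavenger receptor known from the response to oxidative stress. RCSD1 encodes CapZIP, a protein that binds the actin capping protein and is phosphorylated by stress-activated kinases.

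In the RefSeq annotation of GRCh38.p14, the build that the submitters' processing notes call hg38, PHGR1 lies at chr15:40351033-40356434, PCDH19 at chrX:100291644-100410273, TBX2 at chr17:61399843-61409466 and RCSD1 at chr1:167630232-167708696. Promoter entries were at hand for 2 of the 5 genes, PCDH19 and RCSD1. The 250 bases before their starts are shown because both genes rose from low levels, and capitals mark matches to the motifs searched. PCDH19 is on the minus strand, with this stretch at chrX:100410274-100410523, and RCSD1 on the plus strand at chr1:167629982-167630231.
PCDH19: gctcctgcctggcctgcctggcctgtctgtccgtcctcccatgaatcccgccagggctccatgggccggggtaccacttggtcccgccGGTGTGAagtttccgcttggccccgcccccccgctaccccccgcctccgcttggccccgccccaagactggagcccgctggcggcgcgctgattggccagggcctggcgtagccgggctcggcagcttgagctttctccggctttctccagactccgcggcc
RCSD1: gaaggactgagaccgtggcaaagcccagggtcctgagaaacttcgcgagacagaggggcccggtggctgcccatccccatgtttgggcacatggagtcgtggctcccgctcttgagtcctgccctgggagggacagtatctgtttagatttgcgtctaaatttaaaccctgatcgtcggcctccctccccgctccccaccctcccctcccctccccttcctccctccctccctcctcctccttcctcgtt
The letters searched on both strands were TATAAA of the TATA box (in 10.7% of 35116 promoters), CTTTGA of TCF/LEF factors (11.2%), GGTGTGA of T-box factors (2.76%), TTTATNG of CDX factors (8.93%), CACGTG of the E-box (6.34%), CACNAG of the N-box (32.0%) and TGACTCA of AP-1 (4.20%). PCDH19 held 1 match, to the T-box letters, whose first base lies at -162 from the start, and RCSD1 held none. The GC content was 72.0% for PCDH19 and 61.6% for RCSD1, against a median of 58.0% over all promoters. A match of letters is no sign that a factor binds there.

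PHGR1 stood at 39.3, 36.3 and 43.3 CPM at 1 dpi (libraries 6, 7 and 8, in this order throughout) and at 209 and 227 CPM at 4 dpi (libraries 10 and 11). The means were 39.6 ± 3.52 CPM (SD, n = 3) and 218 ± 12.9 (SD, n = 2). For this gene and the other 4 the choice itself favours libraries that do not overlap between the time points, so nothing is read from that. The summed UMIs, 697 and 1691, gave a fold of 5.53 (exact 95% interval 5.06 to 6.05), and the fold was 5.54 within the first flow cell and 5.25 within the second. Intervals on UMIs and on shares of cells cover counting error only.

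PCDH19 was at 24.1, 16.4 and 19.9 CPM at 1 dpi and at 101 and 105 CPM at 4 dpi. The libraries of 4 dpi were nearly level. The fold of the summed UMIs was 4.99 (4.40 to 5.66), with 364 and 797 UMIs, and 4.99 and 5.27 within the flow cells.

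TBX2 rested on far fewer counts, 11 UMIs at 1 dpi and 75 at 4 dpi. Its level was 0.933, 0.558 and 0.209 CPM at 1 dpi, and 5.30 and 14.2 CPM at 4 dpi. The libraries of 4 dpi differed from each other, and of the 54 UMIs in library 11 a single cell held 29. Without the highest cell of each library, libraries 10 and 11 were at 3.30 and 6.67 CPM. The fold was 15.5 (8.21 to 32.4), but 7.11 within the first flow cell and 68.1 within the second, both outside this interval.

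SCARA3 had 7, 0 and 3 UMIs at 1 dpi, or 0.933, 0 and 0.627 CPM. At 4 dpi it had 25 and 23 UMIs, 6.31 and 6.07 CPM, and the fold was 10.9 (5.46 to 24.2), with 13.5 and 9.67 within the flow cells. No cell of library 7 held a UMI, and 0 of 142 cells allows a share of cells with a UMI of up to 2.11% (3 counts of the total), which is no limit on cells that express the gene. RCSD1 stood at 1.07, 0.558 and 1.25 CPM at 1 dpi and at 10.4 and 7.92 CPM at 4 dpi, a fold of 9.52 (5.55 to 17.2) from 17 and 71 UMIs, with 12.7 and 6.31 within the flow cells.

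**Figure D1:**
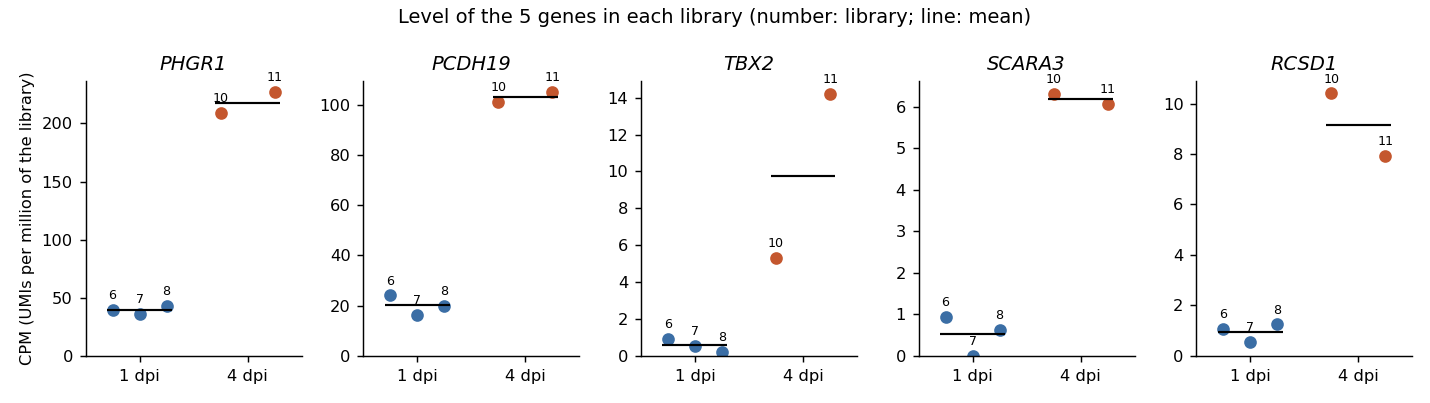
Level of each gene in CPM (vertical axis, from 0) in the 3 libraries of 1 dpi (blue) and the 2 of 4 dpi (orange), numbered by library, with the group mean as a line. The genes were chosen for being higher at 4 dpi, and TBX2 differs most between the libraries of 4 dpi, with 5.30 and 14.2 CPM.

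On the log2 scale of the fit the changes were 2.44 (SE 0.11) for PHGR1, 2.31 (SE 0.14) for PCDH19, 3.90 (SE 0.53) for TBX2, 3.39 (SE 0.55) for SCARA3 and 3.19 (SE 0.40) for RCSD1. These fits used all 5 libraries, and the values are those the genes were chosen on. TBX2 changed by 3.04 on this scale without library 11. SCARA3 changed by 4.23 without library 6, which held most of its UMIs of 1 dpi. With cells limited to less than 15% mitochondrial UMIs PHGR1 changed by 1.90.

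A rise of a sum can come from more cells with the transcript or from more transcripts per cell, and both were counted. PHGR1 was detected in 39.0%, 38.0% and 38.7% of cells at 1 dpi, and in 70.5% and 68.3% at 4 dpi. The mean share rose 1.80-fold, while in cells with a UMI the median level rose 3.35-fold, from 0.744 to 2.49 UMIs per 10000. PCDH19 was detected in 26.8%, 25.4% and 24.5% of cells at 1 dpi and in 56.8% and 47.8% at 4 dpi. Here the share rose 2.05-fold and the level in cells with a UMI 3.01-fold. Where most such cells hold 1 UMI, this level is set by their depth and cannot show a change. After each cell was thinned to 5000 UMIs the median of cells with a UMI was 1.00 UMI at 1 dpi and 2.00 at 4 dpi for PHGR1, and 1.00 at both times for PCDH19, of which 12 of 38 such cells at 1 dpi and 27 of 76 at 4 dpi held more than 1.

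The rarer genes differed in this respect. TBX2 was found in 10 of 533 cells at 1 dpi and in 18 of 293 at 4 dpi, a mean share of 1.79% ± 1.05 (SD, n = 3) and 6.20% ± 0.868 (SD, n = 2), and the median was 1.00 UMI in its cells at 1 dpi and 2.00 at 4 dpi. SCARA3 was found in 10 and 32 cells, with shares of 1.64% ± 1.55 and 11.0% ± 0.569. RCSD1 was found in 13 and 41 cells, with 2.34% ± 0.646 and 14.4% ± 5.39. The median of their cells was 1.00 UMI at both times, so their level per cell cannot be compared. At 4 dpi 9 of the 32 cells with SCARA3 and 18 of the 41 with RCSD1 held more than 1 UMI, against 0 of 10 and 4 of 13 at 1 dpi.

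The share of cells was next set against the share that would be seen if every cell of a library had the same level per UMI, so that only depth and counting decided which cells hold a UMI. PHGR1 would then be found in 147, 94.8 and 104 cells at 1 dpi, and it was found in 89, 54 and 63. In libraries 10 and 11 it was found in 93 and 110 cells and would be found in 126 and 152. PCDH19 was found in 75 and 77 cells at 4 dpi, against 114 and 130. Both transcripts were therefore unevenly spread over the cells at both times: the highest cells (54 of 533 and 30 of 293) held 64.1% of PHGR1 UMIs at 1 dpi and 45.5% at 4 dpi, and 73.6% and 56.8% of those of PCDH19.

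TBX2 was unevenly spread at 4 dpi. At 1 dpi it was found in 10 cells where 10.8 were predicted, and at 4 dpi in 9 and 9 cells where 18.9 and 43.0 were predicted. Of its 75 UMIs at 4 dpi the highest cell held 38.7%. SCARA3 (10 found, 9.87 predicted) was near the prediction at 1 dpi and was lower at 4 dpi, with 32 against 42.8. RCSD1 was found in 13 cells against 16.6 at 1 dpi and in 41 against 60.2 at 4 dpi. The values of 1 dpi rest on 10 to 17 UMIs per gene, and how uneven a spread so few could show was not tested. In library 8 the 6 UMIs of RCSD1 lay in 3 cells against 5.85 predicted.

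**Figure D2:**
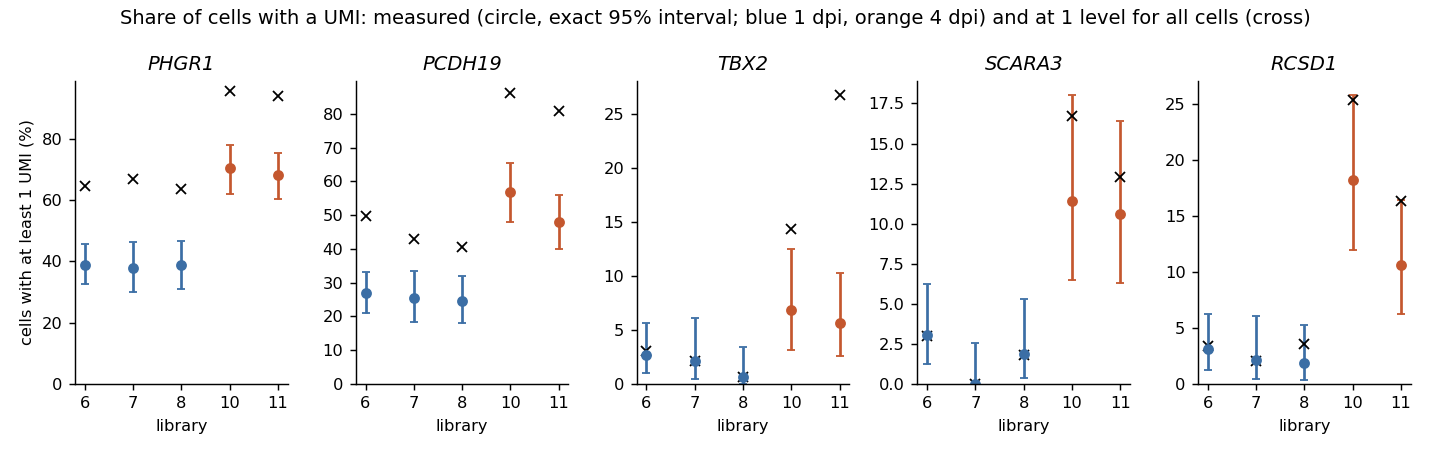
Share of cells with at least 1 UMI (%, vertical axis) in each library (horizontal axis), as circles with the exact 95% binomial interval for counting error (blue 1 dpi, orange 4 dpi), and the share at an equal level in all cells as crosses. The crosses of PHGR1 and PCDH19 lie above the intervals in every library, while those of TBX2 do so at 4 dpi and lie inside at 1 dpi.

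Depth differed between libraries, so the shares were also taken after thinning each cell to 5000 UMIs, which left out 7 cells of 1 dpi and 4 of 4 dpi. PHGR1 was then in 16.9% and 51.6% of cells, PCDH19 in 7.22% and 26.3%, SCARA3 in 0.570% and 3.81%, RCSD1 in 0.951% and 5.54% and TBX2 in 0.190% and 2.42%. The order of the time points was as without thinning for all 5 genes. Cells of epithelial origin filled every library, so no cell type without these genes was at hand to measure free RNA in the wells.

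Whether the same cells carried the genes was first counted. At 1 dpi 291 of 533 cells held a UMI of at least 1 of the 5 genes (54.6%) and 14.8% held at least 2 of them. At 4 dpi these shares were 81.6% and 50.9%, and 17.7% of cells held 3 or more. A single cell, in library 10, held all 5.

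PHGR1 and PCDH19 were found together in 129 cells at 4 dpi. From the shares of each gene in cells of like depth (3 equal groups by UMIs in each library) 110 would be predicted. In library 10 63 cells held both against 54.2 predicted, and in library 11 66 against 55.8. PCDH19 was found in 63.5% of the cells with PHGR1 and in 25.6% of those without. The ratio of found to predicted was 1.17 at 4 dpi and 1.15 at 1 dpi (64 against 55.8), where library 8 showed no excess, with 16 against 16.2. After thinning it was 1.40 at 4 dpi (55 cells against 39.2) and 1.97 at 1 dpi (13 against 6.59). Pearson's r between their log levels over the cells was 0.37 and 0.45 at 4 dpi and 0.22, 0.18 and 0.12 at 1 dpi, where cells share a library and depth varies.

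Most cells with SCARA3 or RCSD1 at 4 dpi also held PHGR1, which was in 69.3% of all cells then. Of 32 cells with SCARA3 at 4 dpi 29 held PHGR1 against 22.6 predicted, and of 41 with RCSD1 37 did against 29.8. For SCARA3 this was 15 against 10.7 in library 10 and 14 against 11.9 in library 11. Of 32 cells of nearly the same depth without SCARA3 27 held PHGR1, and of 41 such cells without RCSD1 27 did. SCARA3 and PCDH19 met in 26 cells against 17.8, and SCARA3 and RCSD1 in 8 against 4.88. The latter excess lay in library 10 (6 against 2.66), with 2 against 2.22 in library 11. TBX2 went the other way: 7 of its 18 cells held PHGR1 where 12.9 were predicted and 6 held PCDH19 where 10.3 were. For SCARA3 and RCSD1 the counts were too low to read, with 1 cell each against 2.05 and 2.96. Cells of 1 library are not replicates, and these counts carry no test.

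**Figure D3:**
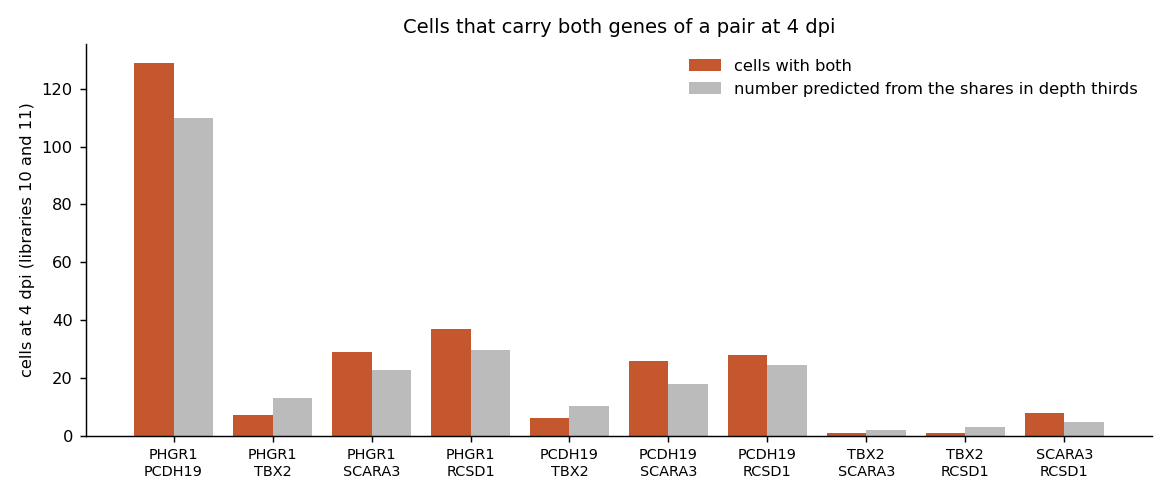
Number of cells at 4 dpi (vertical axis) that hold a UMI of both genes of a pair (orange), beside the number predicted from each gene's share in cells of like depth (grey). With both libraries summed every pair without TBX2 is above its prediction, such as PHGR1 and PCDH19 with 129 cells against 110. Every pair with TBX2 is below, such as PHGR1 and TBX2 with 7 against 12.9. This does not hold in each library: SCARA3 with RCSD1 had 2 cells against 2.22 in library 11, and TBX2 with SCARA3 1 against 0.909 in library 10.

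**Figure D4:**
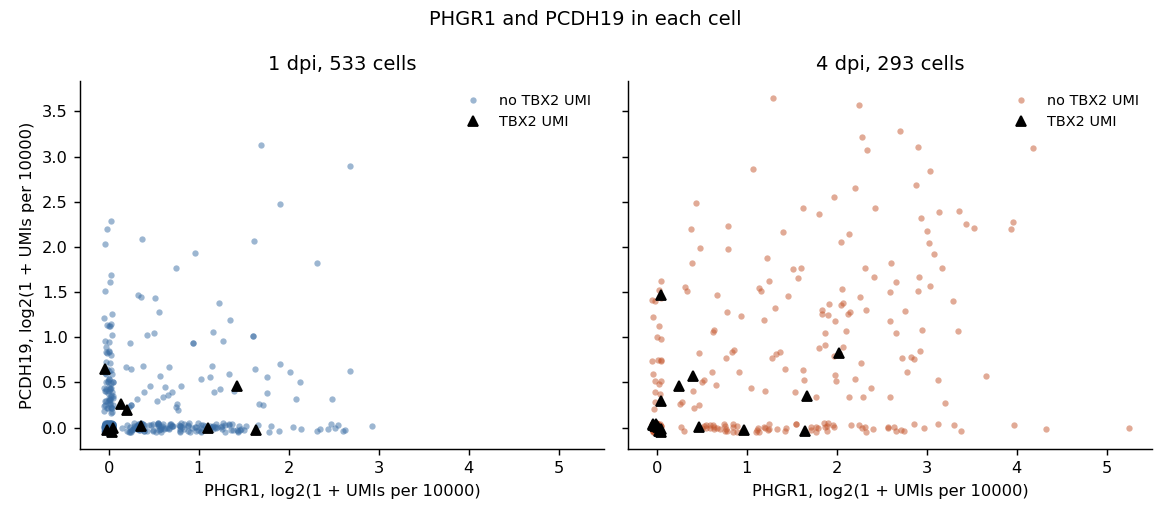
Each cell's PHGR1 (horizontal axis) and PCDH19 (vertical axis) level as log2(1 + UMIs per 10000), at 1 dpi (533 cells, left) and 4 dpi (293 cells, right), with cells that hold TBX2 as black triangles and cells at 0 spread slightly for sight. More cells lie high on both axes at 4 dpi than at 1 dpi, and at 4 dpi 9 of the 18 triangles lie at 0 on both axes.

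The same question was then tested on sums over libraries. Cells with a UMI of a gene (carriers) were paired with cells without (non-carriers) of the same library and nearly the same depth, UMIs were summed in each arm and library, and all genes were compared with the library as a block. This comparison is made within libraries and does not use the contrast between time points. It could be run for PHGR1 and PCDH19 in all libraries and for SCARA3 and RCSD1 in libraries 10 and 11. TBX2 had at most 9 pairs in a library, under the minimum of 10, and its carriers were not compared. TBX2, SCARA3 and RCSD1 are low, and where they differed most between arms at 4 dpi both arms on their high side reached the count the filter asks for, and 0 or 1 arm on their low side. Passing the filter then already favours a difference, so for these genes UMIs and levels at 4 dpi are given as a description, with no test. The same limit holds for genes named below whose UMIs lay almost all in 1 arm, and their differences are a description too.

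Between PHGR1 carriers and non-carriers of all 5 libraries none of 10511 genes was called (0%), with 888 genes at an unadjusted p below 0.05, and DESeq2 called 3. PCDH19 was among the latter. Its log2 difference was 1.62 (SE 0.33), higher in carriers in 5 of 5 libraries, with an adjusted p of 0.363 in edgeR and 0.00249 in DESeq2. The time points were not alike: the interaction of carrier and time, added after the data had been seen, was called for 1226 genes (11.7%), a count that fell to 595, 746, 189 and 782 without library 7, 8, 10 or 11. At 4 dpi alone 2047 of 9404 genes (21.8%) were called by edgeR and 324 by DESeq2, against 1 gene by edgeR at 1 dpi.

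PHGR1 carriers held more PHGR1 at 4 dpi (307 and 338 CPM) than at 1 dpi (91.7 to 108 CPM), so the groups compared are unlike between the times. PCDH19 was among the genes called at 4 dpi. It stood at 153 CPM in the carriers of PHGR1 and 37.8 in the non-carriers of library 10, and at 148 and 15.8 CPM in library 11. The log2 difference was 2.70 (SE 0.27, adjusted p = 6.4e-09, edgeR). At 1 dpi it was 0.89 (SE 0.21, adjusted p = 0.286), and the difference between the time points was 1.79 (SE 0.36, adjusted p = 0.00701). Without library 11 this fell to 1.31 with an adjusted p of 0.0536.

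TBX2 had 1 and 5 UMIs in the PHGR1 carriers of libraries 10 and 11 and 15 and 48 in the non-carriers. The 6 UMIs of the carriers lay in 3 cells and the 63 of the non-carriers in 11 cells, of 85 cells each. SCARA3 had 15 and 3 UMIs and RCSD1 18 and 6, in carriers and non-carriers, and neither passed the filter on low counts. The median mitochondrial share of these carriers was 15% in library 10 and 12.2% in library 11, against 7.98% and 9.16% in the non-carriers, and its part in these differences was not tested.

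Named by the rule for the largest differences with the same sign in each library, the genes higher in PHGR1 carriers at 4 dpi were CEMIP, a hyaluronan-binding protein (log2 difference 5.24, 41 UMIs in 26 of 85 carriers and 1 UMI in 85 non-carriers), CCL20 (4.77), CXCL2 (3.86), MUCL1 (3.54) and CXCL1 (3.37). CCL20, CXCL1 and CXCL2 are chemokines, and each owed much of its count to a single cell: 71 of the 130 UMIs of CCL20 in carriers, 83 of 132 of CXCL1 and 32 of 55 of CXCL2. The lowest were CYP1A1, a cytochrome of xenobiotic metabolism (-5.87, with 42 of the 85 UMIs of the non-carriers in 1 cell), the monoamine oxidase gene MAOA (-4.40, 54 UMIs in 19 non-carriers and 2 in carriers), ZBTB49 (-4.15), MIR7-3HG (-4.04) and TRIM21 (-4.03). MAOA, ZBTB49 and TRIM21 were spread over 16 to 20 cells with at most 7 UMIs in any. CEMIP, CYP1A1, MAOA, ZBTB49, MIR7-3HG and TRIM21 had 1 or 2 UMIs in their low arm. They passed the filter through the other arm alone, which already favours a difference.

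Between PCDH19 carriers and non-carriers, with all 5 libraries, 46 of 10052 genes (0.458%) were called, 18 higher and 28 lower in carriers, and between 5 and 35 without each library in turn (7 without library 6, 16 without 8, 5 without 10 and 17 without 11). PHGR1 was 1 of them, with a log2 difference of 0.90 (SE 0.18, adjusted p = 0.0499, edgeR), higher in 5 of 5 libraries. The call is at the threshold and was lost without library 6, 8, 10 or 11 (adjusted p from 0.0511 to 0.253), while DESeq2 gave 0.0162. At 4 dpi PHGR1 stood at 282 CPM in carriers and 105 in non-carriers of library 10 and at 263 and 139 in library 11, a log2 difference of 1.26 (SE 0.16, adjusted p = 2.9e-05). There 966 genes (9.55%) were called, and 91 by DESeq2. The median mitochondrial share was 13.7% and 13.5% in these carriers, against 8.54% and 9.16% in the non-carriers, and its part in the differences was not tested. TBX2 had 5 UMIs in 3 carriers and 37 in 12 non-carriers, SCARA3 31 UMIs in 19 carriers and 7 in 5 non-carriers, and RCSD1 25 UMIs in 18 carriers and 23 in 10 non-carriers.

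The genes highest in PCDH19 carriers over all libraries were LOC100507537 (log2 difference 1.63), ST5 (1.37), PCP4 (1.31), a calmodulin-binding protein, MYB (1.29), a transcription factor of progenitor cells, and DACH1 (0.90). PCP4, MYB and DACH1 were found in 114, 107 and 181 of 235 carriers and in 60, 52 and 127 of as many non-carriers. The lowest were the heat shock gene HSPA1A (-2.44), HDAC9 (-1.37), PLAUR (-1.26), the urokinase receptor, SERPINA1 (-1.08) and CD163L1 (-0.97). For HSPA1A 210 of the 432 UMIs of the non-carriers lay in 1 cell, and PLAUR was found in 133 non-carriers and 105 carriers.

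RCSD1 carriers could be compared with non-carriers at 4 dpi in 41 pairs of cells. Of 8303 genes 1003 (12.1%) were called by edgeR and 158 by DESeq2. The median mitochondrial share was 15.1% and 14.1% in the carriers of libraries 10 and 11, against 9.07% and 12.7% in the non-carriers, and its part was not tested. PHGR1 was higher in the carriers, 345 against 162 CPM in library 10 and 375 against 120 in library 11, with a log2 difference of 1.48 (SE 0.20, adjusted p = 2.0e-04 in edgeR and 1.4e-04 in DESeq2). PCDH19 was lower in carriers of library 10 and higher in those of library 11 (0.62, SE 0.32, adjusted p = 0.215). Of the genes named by the rule, CCL20 (3.27, 71 of 109 UMIs in 1 cell), the mitotic genes HJURP (3.07) and KIF20A (2.83), the gastric mucin MUC5AC (2.59) and LOC643201 (2.45) were the highest. DHRS2, a short-chain dehydrogenase, was the lowest, with 0 UMIs in carriers and 756 in 12 non-carriers, followed by ALOXE3 and ATP13A5, at 0 in the carriers and at 60 and 23 UMIs in the non-carriers, BPIFC (-5.00) and UPP1 (-4.21). DHRS2, ALOXE3, ATP13A5 and BPIFC (1 UMI in carriers) passed the filter through the non-carriers alone, which already favours a difference.

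SCARA3 carriers gave 32 pairs, and 215 of 7050 genes (3.05%) were called by edgeR but 16 by DESeq2. Their median mitochondrial share was 16.0% and 15.6%, against 15.1% and 11.3% in the non-carriers, and its part was not tested. PHGR1 differed by -0.27 (SE 0.24, adjusted p = 0.661) and PCDH19 by 0.36 (SE 0.28, adjusted p = 0.599), so no difference was shown for either at this depth. PHGR1 had 200 UMIs in 29 carriers and 259 in 27 non-carriers. The genes highest in carriers were CXCL1 (2.86, 29 of 51 UMIs in 1 cell), XRCC3 (2.42) and POLA2 (2.16) of DNA repair and replication, HJURP (2.29) and the antiproliferative gene BTG2 (2.17). The lowest were BHLHE41 (-5.10, 357 of 416 UMIs in 1 cell), C11orf96 (-5.07), EGR2 (-3.31), VGF (-3.27) and RNF19B (-3.18). With 2 libraries, values such as that of BHLHE41 rest on a single cell in the non-carriers. C11orf96, EGR2 and RNF19B, at 1, 4 and 2 UMIs in carriers, passed the filter through the non-carriers alone, which already favours a difference.

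Of the cell cycle list (54 of 55 genes counted) 34 of 53 tested genes were higher in RCSD1 carriers and none lower, where 5.34% of all genes were higher and 6.74% lower. The median log2 difference was 1.04 against 0.00 over all genes. NUF2, a kinetochore gene, rose most among these (2.21, SE 0.45, adjusted p = 0.00507). In SCARA3 carriers 9 of 51 were higher and none lower (1.23% and 1.82% of all genes), with a median of 0.68, and UHRF1 led (1.92). In PCDH19 carriers at 4 dpi 17 of 54 were higher (4.81% of all genes; median 0.40, DLGAP5 1.26). In PHGR1 carriers 13 of 53 were higher and 2 lower, against 11.3% and 10.5% of all genes (median 0.17, UHRF1 2.04, KIF2C -0.92).

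Of the T-box family and TBX2 targets 4 of 8 tested genes were lower in PHGR1 carriers at 4 dpi and none higher (median -1.24), where 10.5% of all genes were lower. In PCDH19 carriers 3 of 8 were lower, against 4.73% of all genes. Both kinds of carrier had the higher mitochondrial share given above. TBX3, the closest relative of TBX2, fell most (-1.91, SE 0.45, adjusted p = 0.00233, and -1.59). CTNNB1, which encodes beta-catenin, was higher in carriers of PHGR1 (1.07, SE 0.17, adjusted p = 2.2e-05), of PCDH19 (0.68) and of RCSD1 (0.85) at 4 dpi. In PHGR1 and PCDH19 carriers at 4 dpi VIL1 (villin of the brush border) was higher, by 1.42 and 1.44, and the galectin LGALS3 lower, by -0.54 and -0.75. Of the Notch effectors HES1 was lower in both at 4 dpi (-0.77 and -0.98). Over all libraries HES5 was higher in PCDH19 carriers (1.83, SE 0.27, adjusted p = 0.0146). HES5 stood at 74.7 to 127 CPM at 1 dpi and at 2.52 and 3.96 CPM at 4 dpi. Its value thus rests mostly on 1 dpi and cannot be set against that of HES1. No scavenger receptor was called in any carrier comparison, with 2 or 3 of the 18 tested.

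For genes found in at least 20% of the cells of 4 dpi the likeness to PHGR1 and PCDH19 was also measured, as the lower of the Pearson r values in libraries 10 and 11 over 8966 genes. The other members were in fewer cells. Most like PHGR1 were HNRNPA1, an RNA-binding protein (r of 0.49 and 0.50), the keratin KRT8 (0.47 and 0.46), GPI of glycolysis (0.42 and 0.43), the ribosomal RPL27A (0.50 and 0.41) and the receptor EPHB6 (0.41 and 0.46). At 1 dpi the same r lay between -0.11 and 0.16 for these genes but for EPHB6 in library 7 (0.36). Most like PCDH19 were the noncoding RNA DANCR (0.40 and 0.39), the cell cycle kinase CDK6 (0.37 and 0.40), PHGR1 itself (0.37 and 0.45), the Wnt inhibitor APCDD1 (0.36 and 0.37) and HMGB1 (0.36 and 0.40). APCDD1 was the only one of these with an r above 0.25 or at it in all libraries of 1 dpi (0.29, 0.27 and 0.25).

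The genes most opposite were looked up after these values were seen. For PHGR1 they were SNHG12 (-0.52 and -0.50), SLC3A2 (-0.45 and -0.46), SQSTM1 (-0.43 and -0.45), RSRC2 (-0.43 and -0.45) and SNHG1 (-0.43 and -0.44), and for PCDH19 ANXA5, LGALS3, TNFRSF12A, SQSTM1 and SNHG12 (between -0.41 and -0.32). SNHG12 and SNHG1 are host genes of small nucleolar RNAs, SLC3A2 is a subunit of amino acid transporters and SQSTM1 an autophagy receptor. In the carrier comparison at 4 dpi SNHG12 was lower in PHGR1 carriers by -1.61 (SE 0.17, adjusted p = 1.9e-08, edgeR) and SQSTM1 by -1.49 (SE 0.16, adjusted p = 1.0e-08). DANCR (1.41) and EPHB6 (2.31, SE 0.27, adjusted p = 6.8e-08) were higher. These are the same cells as in the correlations and not a second line of evidence.

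Cells were further split within each library at the median of a share of UMIs, and cells above it were compared with the others, with the library as a block. With all 5 libraries only PHGR1 and PCDH19 passed the filter on low counts, so the rarer genes are described in the libraries of 4 dpi alone, with no test for the reason given above. At 4 dpi the splits by cell cycle, Notch effectors and gut differentiation also differed in the mitochondrial share. In libraries 10 and 11 its median was 14.6% and 14.4% in cells above the cell cycle median, against 9.69% and 9.64% below. For the Notch effectors it was 9.30% and 10.7%, against 13.9% and 13.1%. For differentiation it was 8.49% and 9.67%, against 15.2% and 14.1%. The part of this share in the differences by these splits was not tested.

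By the share of UMIs from cell cycle genes, 1988 of 10835 genes (18.3%) were called. PCDH19 was higher in the cells above the median, by 0.46 (SE 0.12, adjusted p = 0.0110, edgeR), in 5 of 5 libraries, in 83 against 54 cells at 1 dpi and 87 against 65 at 4 dpi. Without library 6 the adjusted p was 0.0506. The cells above the median were deeper in every library, such as a median of 35972 against 26058 UMIs in library 6 and 23214 against 16841 in library 11. These counts of cells are not adjusted for that depth. PHGR1 differed by 0.11 (SE 0.12, adjusted p = 0.560). At 4 dpi, where 11.0% of genes were called, SCARA3 and RCSD1 had higher levels in the cells above the median. SCARA3 stood at 9.60 and 8.04 CPM above it and at 2.26 and 3.58 below, and RCSD1 at 14.2 and 11.8 against 5.64 and 2.98. The fitted log2 difference was 1.66 for each.

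By the share of mitochondrial UMIs, 2196 of 11003 genes (20%) were called with all libraries and 35.5% at 4 dpi. PHGR1 turned with time. At 1 dpi it was lower in the cells above the median in 3 of 3 libraries, at 26.5 to 31.2 CPM against 41.6 to 55.3. At 4 dpi it was higher in both, at 266 and 305 CPM against 162 and 151 (log2 difference 1.14, SE 0.13, adjusted p = 7.2e-17 in edgeR and 9.6e-07 in DESeq2). The interaction of this split with time, called for 7.16% of genes, was 1.68 for PHGR1 (SE 0.19, adjusted p = 3.6e-05). It was called without each library in turn, and the value with all libraries pooled, 0.28, was not (adjusted p = 0.474).

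PCDH19 was higher above the median mitochondrial share, by 0.69 over all libraries (SE 0.22, adjusted p = 0.0461, edgeR), a call lost without library 6, 8, 10 or 11 (adjusted p from 0.0753 to 0.187). At 1 dpi its level was higher there in 2 of 3 libraries, while library 7 stood at 10.9 CPM above and 22.1 below. Of the cells of 1 dpi 58 above the median held a UMI and 79 below. At 4 dpi the difference was 0.95 (SE 0.15, adjusted p = 1.5e-08 in edgeR and 0.00492 in DESeq2). RCSD1 had 49 UMIs in 29 cells above the median at 4 dpi and 22 in 12 cells below it. TBX2 had 2 UMIs in 2 cells above the median and 73 UMIs in 16 cells below it, and without the highest cell of each library it did not pass the filter on low counts here. The median mitochondrial share of the 18 cells with TBX2 was 5.91%, against 13.0% in the 275 without, while for RCSD1 it was 14.8% against 11.6%.

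By the share of Notch effector UMIs, in which HES1 made up 74.8% at 1 dpi and 55.7% at 4 dpi, 4550 of 10935 genes (41.6%) were called. PCDH19 was lower in the cells above the median, by -0.64 (SE 0.15, adjusted p = 0.00408), in 5 of 5 libraries, and PHGR1 differed by -0.19 (SE 0.14, adjusted p = 0.283). After thinning each cell to 5000 UMIs PCDH19 was no longer called (-0.37, adjusted p = 0.291). At 4 dpi (16.5% called) PCDH19 stood at 92.1 and 97.9 CPM against 110 and 111 (-0.31, adjusted p = 0.159). TBX2 had 71 UMIs in 16 cells above the median there and 4 UMIs in 2 cells below, a fitted log2 difference of 4.17, and of 3.14 without the highest cell of each library. All 7 Notch effector genes were lower at 4 dpi than at 1 dpi, HES5 most (log2 change -4.99).

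By the share of gut differentiation UMIs, made up mostly of KRT19 (60.1% at 1 dpi, 51.9% at 4 dpi) and LGALS3 (26.5% and 30.7%), 294 of 10983 genes (2.68%) were called with all libraries, and neither PHGR1 (0.55, adjusted p = 0.298) nor PCDH19 (-0.14, adjusted p = 0.874) was. The interaction with time was called for both, with 9.28% of genes called. For PHGR1 it was -1.62 (SE 0.19, adjusted p = 4.0e-06). At 1 dpi PHGR1 was higher in the cells above the median in 3 of 3 libraries, 52.8 to 60.2 CPM against 20.6 to 25.9. At 4 dpi the arms overlapped, with 212 against 207 CPM in library 10 and 203 against 257 in library 11. For PCDH19 it was -1.84 (adjusted p = 5.6e-05), and at 4 dpi, where 8.44% of genes were called, PCDH19 was lower above the median, at 69.8 and 76.1 CPM against 130 and 140 (-1.04, SE 0.17, adjusted p = 8.5e-08 in edgeR, 0.0213 in DESeq2). SCARA3 had 13 UMIs in 11 cells above the median and 35 in 21 below. Both interactions were called without each library in turn. After thinning to 5000 UMIs the values over all libraries were -0.05 and -0.08.

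By RNA content, taken as human UMIs per spike-in UMI, 473 of 11082 genes (4.27%) were called, and PHGR1 (-0.31) and PCDH19 (0.07) were not.

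**Figure D5:**
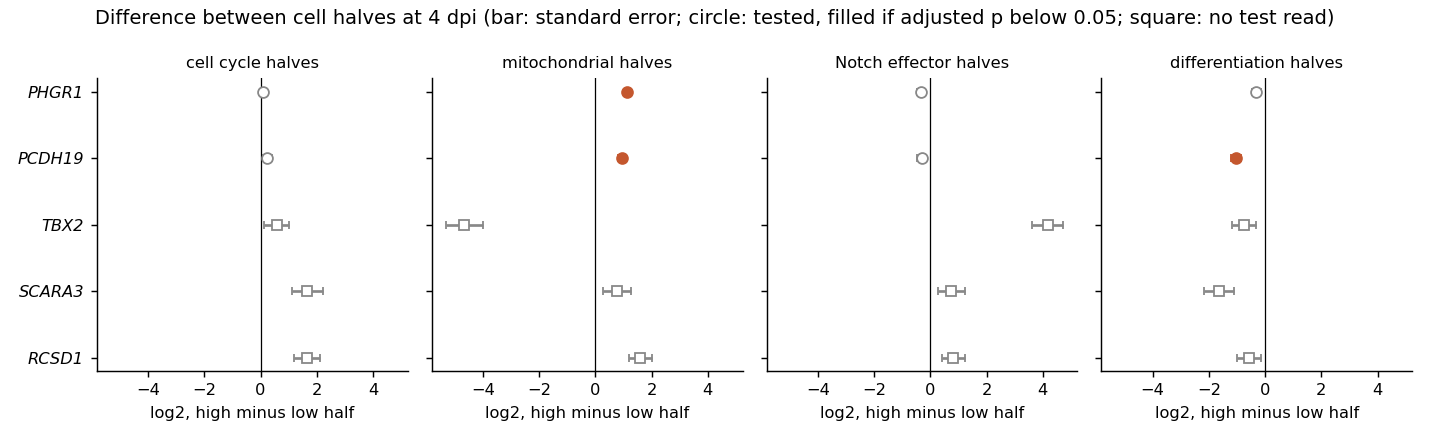
Log2 difference between cells above and below the library median of 4 shares (panels) for the 5 genes at 4 dpi, with the standard error as a bar, circles for the tested genes (filled at an adjusted p below 0.05) and squares for the rarer genes, given with no test. TBX2 lies opposite to PHGR1, PCDH19 and RCSD1 for the mitochondrial share (-4.66 against 1.14, 0.95 and 1.60) and far to the right for the Notch effectors (4.17). The cells split by the other shares also differ in the mitochondrial share, so the panels are not independent.

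Relatives and partners of the 5 genes were described by their change from 1 to 4 dpi. The counts stand against the 13.4% of all genes that were higher and the 14.2% that were lower. Of 30 gut differentiation genes 13 were tested, 4 were higher and 1 lower, with a median log2 change of 0.09 against 0.00 over all genes. GPA33, an adhesion protein of colon epithelium, rose most (2.18, SE 0.52, adjusted p = 0.00572, at no more than 5.55 CPM), and KRT19 fell (-0.38). Of 14 other delta-protocadherins and partners of PCDH19 9 were tested, with a median of 0.56. PCDH1 (1.11, SE 0.35, adjusted p = 0.0253), CTNNB1, CYFIP2 and NONO rose, and NCKAP1 of the WAVE complex fell (-0.51). Of 22 genes of the T-box family and targets of TBX2 9 were tested, and only CDH1, which encodes E-cadherin, was called (-0.73, SE 0.18, adjusted p = 0.00615). TBX3 differed by 0.02 (SE 0.24), CDKN1A by 0.08 (SE 0.17) and CDKN2A by -0.10 (SE 0.12).

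Of 18 other scavenger receptors 7 were tested, and CD36, a receptor for lipids, was the only one called (2.08, SE 0.54, adjusted p = 0.00966, from 0.372 to 1.47 CPM at 1 dpi to 2.52 and 6.86 at 4 dpi). Of 24 genes around the capping protein and CapZIP 17 were tested, 2 were higher and 6 lower (median -0.22). MAPK13, a kinase that phosphorylates CapZIP, rose (0.50, SE 0.12, adjusted p = 0.00649), SH3KBP1 fell most (-0.84, SE 0.12, adjusted p = 1.2e-04), and the capping protein subunits CAPZA1, CAPZA2 and CAPZB differed by -0.22, -0.02 and -0.09.

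The nearest tested genes on each side of a member were also looked at, some of them far away (DIAPH2-AS1 at 2727 kb from PCDH19). The members were chosen for large rises, so a larger rise of a member than of its neighbours was to be found by that choice. The neighbours were taken by distance alone. Of 21 such neighbours 10 were called, 8 higher and 2 lower (13.4% and 14.2% over all genes), with CLU next to SCARA3 (1.13, SE 0.09), KNSTRN near PHGR1 (0.94) and ESCO2 near SCARA3 (0.94) the largest. DISP2, 1.78 kb after PHGR1, changed by 0.83 (SE 0.47, adjusted p = 0.201) at no more than 2.64 CPM, and BCAS3, 7.01 kb before TBX2, by 0.62 (SE 0.24, adjusted p = 0.0644). CCDC25, at 82.4 to 102 CPM, overlaps SCARA3 in the annotation and changed by 0.18 (SE 0.11). How UMIs in such an overlap were divided is not stated.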

How the data were processed

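SORT-seq libraries of SW480 cells from zebrafish tumors were analysed, 3 of 1 dpi and 2 of 4 dpi, grouped by the deposited labels. The authors deposited tables of UMI counts per gene and well, and the submitters' processing notes name BWA and hg38. The files listed 15266 genes. Cells were wells with over 2000 features counted (56 ERCC spike-ins included) and under 25% mitochondrial UMIs. No doublet caller was run, since the sorter placed single cells. The genes and lists described, and the tests, were chosen with earlier results of these data known.

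UMI counts were summed per library, or per arm and library, and tested with edgeR 4.0.16 (quasi-likelihood, TMM, filterByExpr), with the library as a block for arms. DESeq2 1.42.0 was an alternative. Adjusted p-values are Benjamini-Hochberg over all genes tested. Carriers were paired within a library to non-carriers whose depth differed by at most 0.3 on the log2 scale, with at least 10 pairs. Each split left out the genes that defined it. The code was tested on simulated data. Named genes were the 5 members, per carrier comparison the 5 largest differences in each direction among called genes of 1 sign in every library, per list the largest called rise and fall, the 5 genes most like a member and the nearest tested neighbours. Cells held 3789632 to 7503665 UMIs per library, and exact 95% intervals cover counting error only.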

Additional observations from a re-analysis of the deposited data

Results flagged for a closer look

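PHGR1 differed between the time points in its relation to the mitochondrial share. The log2 difference between cells above and below the median at 4 dpi exceeded that at 1 dpi by 1.68, a tested interaction (edgeR, adjusted p = 3.6e-05). Its relation to the share of gut differentiation UMIs differed by -1.62 between the time points, and that of PCDH19 by -1.84, both tested in the same way. The difference in PCDH19 between PHGR1 carriers and non-carriers was larger at 4 dpi than at 1 dpi by 1.79.

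Wells that did not pass as cells also held these transcripts. The 619 wells of 1 dpi held 15 UMIs of PHGR1, 6 of PCDH19 and 4 of SCARA3, and the 475 wells of 4 dpi held 356 of PHGR1, 106 of PCDH19, 13 of SCARA3 and 9 of RCSD1. Per 1000000 UMIs of these wells PHGR1 stood at 34.8 at 1 dpi and 254 at 4 dpi, against 39.5 and 218 in the cells. SCARA3 stood at 9.28 and 9.27, with no rise, against 0.566 and 6.19 in the cells, though 4 UMIs carry the value of 1 dpi. PCDH19 stood at 13.9 and 75.6, RCSD1 at 2.32 and 6.42 and TBX2 at 0 and 1.43, the last against 0.623 and 9.68 in the cells. Whether these UMIs came from damaged cells or from free RNA was not tested. The mitochondrial limit alone left out 1, 3 and 1 of these wells in the libraries of 1 dpi and 25 and 30 in those of 4 dpi. Its bearing on the shares of cells and on the mitochondrial split was not tested.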

How the results depend on the processing

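No difference past the threshold in either setting changed its direction, and 11 values of differences that were not called did. PHGR1 turned from 0.11 to -0.01 in the cell cycle split without replicate 8 (range with each library left out -0.01 to 0.23) and from 0.28 to -0.01 in the mitochondrial split without replicate 11 (-0.01 to 0.47). It turned from -0.31 to 0.30 in the RNA content split after thinning, and from -0.27 to 0.09 for SCARA3 carriers when all carriers were set against all non-carriers. In the differentiation split PHGR1 turned from 0.55 to -0.05 after thinning and to -0.31 at 4 dpi alone, by edgeR and by DESeq2. PCDH19 turned there from -0.14 to 0.16 without replicate 10 or 11 (-0.48 to 0.16) and to 0.00 with DESeq2, and in the RNA content split from 0.07 to -0.12 without replicate 11 (-0.12 to 0.31). No paired analysis was possible because the libraries of 1 and 4 dpi share no replicate number. Comparisons by DESeq2 at 4 dpi, at 1 dpi alone, without the cell highest in TBX2, and the carrier interaction were chosen after seeing the data. SCARA3 and RCSD1 carriers have no test with a library left out, as no residual degrees of freedom remained. The number of libraries and the low UMI counts of TBX2, SCARA3 and RCSD1 limit the precision. Thinning removes counts by construction, and for the other changes below the cause was not tested.

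Genes called between time points numbered 3484, and 1168 with cells thinned to 5000 UMIs. Thinning left 580 genes for the cell cycle split, 555 for the mitochondrial, 1218 for the Notch effector, 140 for the differentiation and 1 for the RNA content split. At 4 dpi alone edgeR called 1194, 3842, 1802, 920 and 314 genes in this order, and DESeq2 192, 891, 197, 97 and 27. DESeq2 on all libraries called 1065 for the cell cycle and 260 for RNA content. Without the cell highest in TBX2 the Notch effector split at 4 dpi gave 1386. With each library left out, the splits gave 1301 to 1694, 1019 to 1928, 3103 to 4616, 87 to 472 and 205 to 542 genes, and the interactions 131 to 665 (mitochondrial), 211 to 1076 (differentiation) and 189 to 967 (PHGR1 carriers).

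PHGR1 carriers gave 0 genes, 3 with DESeq2, 1 without the filter on low counts, 2047 at 4 dpi (324 with DESeq2) and 1 at 1 dpi. PCDH19 carriers gave 46, with 101 unfiltered, 125 for all carriers against all non-carriers, 966 at 4 dpi (91 with DESeq2) and 5 to 35 with each library left out. SCARA3 carriers gave 215, with 16 by DESeq2, 20 unfiltered and 477 unpaired, and RCSD1 carriers 1003, with 158, 216 and 2034.

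Mean shares of cells after thinning were 16.9% and 51.6% for PHGR1 at 1 and 4 dpi, 6.94% and 26.4% for PCDH19, 0.147% and 2.41% for TBX2, 3.81% for SCARA3 at 4 dpi, and 0.919% and 5.73% for RCSD1. With at most 15% mitochondrial UMIs PHGR1 was in 41.5% and 63.4% of cells, PCDH19 in 28.2% at 1 dpi, TBX2 in 9.37% and SCARA3 in 8.26% at 4 dpi. With at least 3000 genes the shares were 39.6% and 71.5% for PHGR1, 27.8% for PCDH19 at 1 dpi and 12.1% for SCARA3 at 4 dpi. The ratio of cells with both genes to the prediction at 4 dpi became 1.40 for PHGR1 with PCDH19, 0 with TBX2, 1.55 with SCARA3 and 1.10 with RCSD1 after thinning, and 0 for PCDH19 with TBX2 and 1.76 with SCARA3.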
